A study of Mus musculus with 10 samples.

Results

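Periportal hepatocyte genes are transcribed mainly in the hepatocytes around the portal vein, where blood enters the liver lobule. The 9 described here are Hal, Uroc1, Sds, Gls2, Etnppl, Hsd17b13, Pigr, Ctsc and Cdh1. They were chosen by gene symbol from the 56748 genes of the deposited table, and each symbol had 1 row. RNA was sequenced from mouse liver in 3 groups. The first held 3 liver tumours made by injecting Akt, Nras and Foxo1AAA, a FOXO1 form that AKT can no longer inhibit (Akt/Nras/Foxo1AAA tumours). The second held 3 tumours made with Akt and Nras alone (Akt/Nras tumours), and the third held 4 normal livers of FVB wild-type mice. The tumours model hepatocellular carcinoma, and hydrodynamic tail vein injection placed the genes into hepatocytes of living mice. The genotype label is WT in all 3 groups. The labels give neither the age of the mice nor the promoter of the injected genes, and they do not say that each sample came from another mouse. The p-values therefore measure the spread between these samples, which may be technical in part.

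In the deposited table, whose coordinates follow a build that it does not name, all 9 are protein-coding genes. Hal spans chr10:93324630-93355166, Gls2 chr10:128030326-128045873, Sds chr5:120614591-120621997, Pigr chr1:130754421-130779986, Etnppl chr3:130411097-130431170, Ctsc chr7:87927293-87960096, Uroc1 chr6:90310266-90341533 and Cdh1 chr8:107329983-107396878, all on the plus strand. Hsd17b13 spans chr5:104103306-104125276 on the minus strand.

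The liver lobule is divided along the path of the blood. Hepatocytes near the portal vein break down amino acids, make urea and glucose and face the highest oxygen, whereas hepatocytes near the central vein make glutamine and bile acids and oxidise foreign compounds under Wnt/beta-catenin signalling. The 9 genes cover several of these periportal tasks: histidine, serine, glutamine and phosphoethanolamine breakdown, a lipid droplet enzyme, the receptor that carries immunoglobulin A into bile, a lysosomal protease and the adhesion molecule E-cadherin.

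The 9 genes split in the tumours. Hal, Uroc1, Sds, Gls2, Etnppl and Pigr fell in both tumour groups, Cdh1 rose in both, and Hsd17b13 and Ctsc were higher in Akt/Nras/Foxo1AAA tumours and did not pass in Akt/Nras tumours on the deposited scale, though both were called higher there under equal totals, a scaling described below. Under that scaling 10572 of 12622 tested genes were called in Akt/Nras tumours, with a median log2 change of 0.71. A gene passed, or was called, at a Benjamini-Hochberg adjusted p under 0.05 in limma on log2(FPKM + 1), adjusted over 12439 genes with at least 1 FPKM in at least 3 libraries. FPKM are a level per gene length and per a measure of sequencing depth, which is described below, and all 9 genes passed that filter. Against normal liver, 1 of the 9 was higher and 6 were lower in Akt/Nras tumours, where 69.0% of all tested genes were called, 31.1% higher and 37.9% lower. In Akt/Nras/Foxo1AAA tumours 3 were higher and 6 lower, beside 63.3% of all tested genes called, 26.8% higher and 36.5% lower. The median log2 change of the 9 genes was -1.51 in Akt/Nras/Foxo1AAA tumours and -1.80 in Akt/Nras tumours, beside -0.09 and -0.07 over all tested genes in the same comparisons. Every tumour lay outside the range of the normal livers for 9 genes in Akt/Nras/Foxo1AAA tumours and 7 in Akt/Nras tumours, beside 65.4% and 68.3% of all tested genes. Both comparisons share the 4 normal livers.

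**Figure D1:**
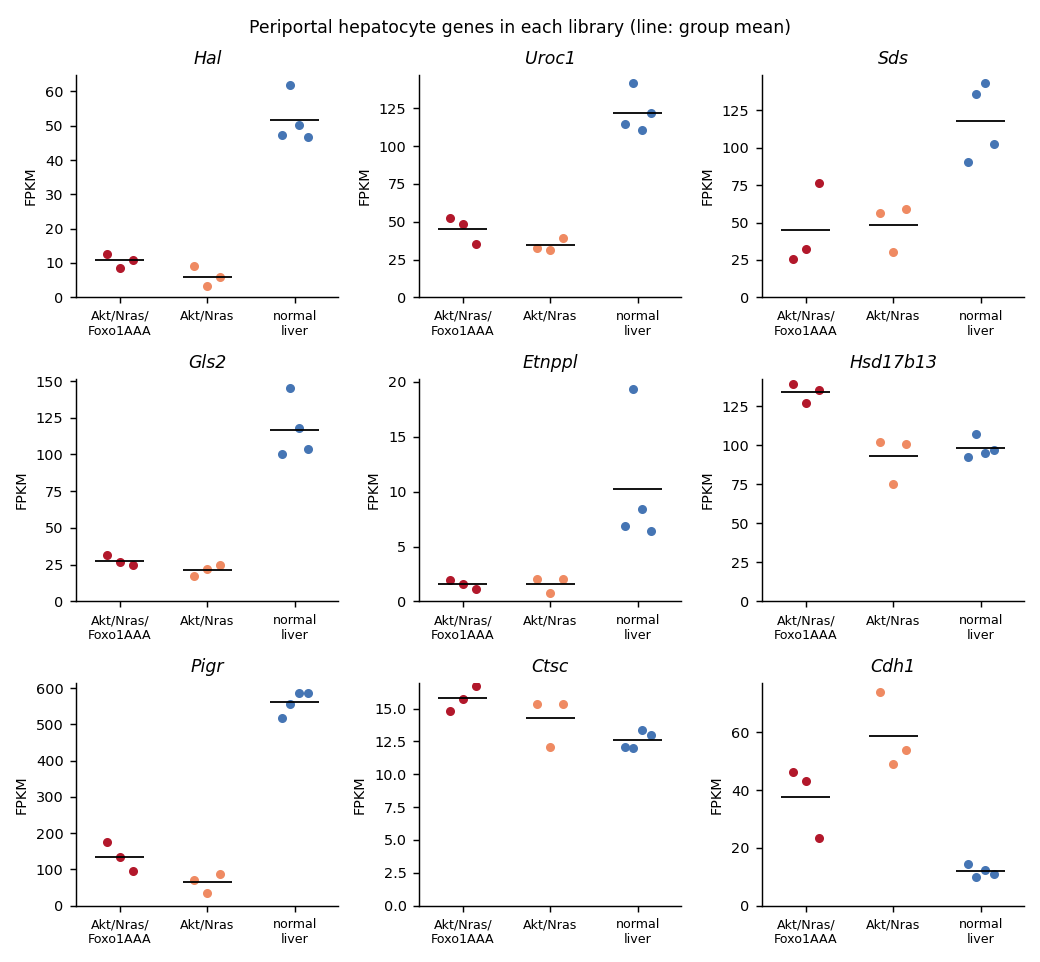
FPKM of each of the 9 periportal genes (vertical axis, from 0) in the 3 Akt/Nras/Foxo1AAA tumours, 3 Akt/Nras tumours and 4 normal livers, 1 point per library with a line at the group mean. In 6 panels every tumour lies below every normal liver, in the Cdh1 panel every tumour lies above, and in the Hsd17b13 and Ctsc panels the Akt/Nras/Foxo1AAA tumours lie above the normal livers on the deposited scale.

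The whole reads behind the FPKM numbered 15.4 to 20.7 M in Akt/Nras/Foxo1AAA tumours, 16.2 to 21.3 M in Akt/Nras tumours, against 13.6 to 17.5 M in normal livers. The 9 genes held between 112 reads (Etnppl in 1 Akt/Nras tumour) and 24445 reads (Pigr in 1 normal liver) per library. The depth measure in the FPKM was a divisor for each library that differed from these reads. This divisor was 0.629 to 0.668 of the library's reads in normal livers. It was 0.875 to 0.928 of them in Akt/Nras/Foxo1AAA tumours and 1.002 to 1.061 of them in Akt/Nras tumours. Compared with division by the reads, the deposited scale therefore raised normal livers relative to tumours. How the divisor was set was not tested. Deposited FPKM summed to 413812 to 444893 in Akt/Nras/Foxo1AAA tumours, 349619 to 381653 in Akt/Nras tumours, against 692010 to 743203 in normal liver. When every library was rescaled to the same total (equal totals), the median log2 change of all genes was 0.48 in Akt/Nras/Foxo1AAA tumours and 0.71 in Akt/Nras tumours against normal liver, and -0.21 between the tumour groups.

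Hepatocyte RNA was abundant in all groups. The summed level of 10 general hepatocyte genes, among them Alb and Ttr, was 60645 to 73872 FPKM in Akt/Nras/Foxo1AAA tumours, 49429 to 50807 FPKM in Akt/Nras tumours and 82079 to 87594 FPKM in normal liver. On the deposited scale 7 of these 10 genes fell and 2 rose in Akt/Nras/Foxo1AAA tumours, and 8 fell and 1 rose in Akt/Nras tumours, with median log2 changes of -0.55 and -0.93. Under equal totals 3 fell and 5 rose in Akt/Nras/Foxo1AAA tumours, and 3 fell and 3 rose in Akt/Nras tumours. Markers of bile duct cells moved the other way: 14 of them summed to 2818 to 5566 FPKM in Akt/Nras/Foxo1AAA tumours, 4316 to 5972 FPKM in Akt/Nras tumours and 27.6 to 33.2 FPKM in normal liver, where 1 of them, Sctr, stood at 0. Spp1 (osteopontin) alone made up 93.1 to 96.1% of that sum in Akt/Nras/Foxo1AAA tumours, and its share was 92.9 to 95.9% in Akt/Nras tumours, against 45.0 to 62.6% in normal liver. The other 13 markers summed to 193 to 219 FPKM in Akt/Nras/Foxo1AAA tumours, 243 to 344 FPKM in Akt/Nras tumours, against 12.4 to 15.2 FPKM in normal liver. In bulk tissue, fewer cells of a type and less RNA per cell cannot be told apart.

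In normal liver Pigr had the highest level of the 9 genes, at 562 ± 32.2 FPKM (SD, n = 4), above all others. Uroc1, Sds, Gls2 and Hsd17b13 followed at means of 122, 118, 117 and 98.0 FPKM, and each overlapped the next in its range. Hal stood alone at 51.5 ± 7.14 FPKM (SD, n = 4), and Ctsc, Cdh1 and Etnppl lay lowest at means of 12.6, 11.9 and 10.3 FPKM with overlapping ranges. The order differed in the tumours: Pigr and Hsd17b13 had the highest means with overlapping ranges in both groups, at 135 ± 40.0 and 134 ± 6.09 FPKM in Akt/Nras/Foxo1AAA tumours and 64.4 ± 27.3 and 92.9 ± 15.2 FPKM in Akt/Nras tumours (SD, n = 3 each). In Akt/Nras tumours the range of Pigr also overlapped those of Cdh1, Sds and Uroc1. Etnppl was the lowest and Hal the next lowest in both tumour groups, and their ranges overlapped neither each other nor those of the other members.

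The sequences just before the transcription start are shown for 3 genes that differ in what they did: Hal and Pigr, which fell most against normal liver in Akt/Nras tumours, and Hsd17b13, which was not called lower. They are the 250 bases before the start in RefSeq on GRCm38.p6, written 5′ to 3′ on the gene's strand, at chr10:93488518-93488767 on the plus strand for Hal, chr1:130826434-130826683 on the plus strand for Pigr and chr5:103977389-103977638 on the minus strand for Hsd17b13. Capitals mark the one match to a searched motif.
Hal: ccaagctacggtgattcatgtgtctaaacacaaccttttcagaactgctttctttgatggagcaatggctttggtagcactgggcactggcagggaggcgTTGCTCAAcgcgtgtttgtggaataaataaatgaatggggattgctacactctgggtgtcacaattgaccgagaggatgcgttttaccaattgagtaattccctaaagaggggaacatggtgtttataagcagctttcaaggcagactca
Pigr: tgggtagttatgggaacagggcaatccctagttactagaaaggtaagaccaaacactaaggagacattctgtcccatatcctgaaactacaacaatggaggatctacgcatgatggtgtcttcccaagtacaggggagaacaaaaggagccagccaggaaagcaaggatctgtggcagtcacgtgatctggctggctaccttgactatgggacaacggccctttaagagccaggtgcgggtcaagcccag
Hsd17b13: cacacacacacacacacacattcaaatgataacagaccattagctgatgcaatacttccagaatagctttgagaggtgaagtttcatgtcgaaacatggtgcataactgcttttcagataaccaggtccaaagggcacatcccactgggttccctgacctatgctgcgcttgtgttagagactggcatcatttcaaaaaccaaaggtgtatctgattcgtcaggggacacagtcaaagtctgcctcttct
RefSeq windows were matched for 6 of the 9 genes: Hal, Hsd17b13, Pigr, Etnppl, Ctsc and Uroc1. Both strands were searched for the forkhead core GTAAACA, the TCF/LEF letters CTTTGAA, the C/EBP letters TTGCGCAA and their relaxed form TTGCNNAA, which contains them, the HNF1 motif and its shorter form, and the HNF4 letters CAAAGTCCA. Among all 32851 RefSeq windows of this length 3.17% held GTAAACA, 4.46% CTTTGAA, 0.164% TTGCGCAA, 9.56% TTGCNNAA, 0.00913% the HNF1 motif, 0.371% its shorter form and 0.384% CAAAGTCCA. The single match in the windows of the 6 genes was TTGCTCAA in Hal, bases 150 to 143 before the start, which fits the relaxed C/EBP letters. A match describes letters in a window and does not show a binding site.

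Hal and Uroc1 encode the first 2 enzymes of histidine breakdown, histidine ammonia-lyase and urocanate hydratase, and both fell in both tumour groups. Hal (ENSMUSG00000020017) stood at 12.6, 8.60 and 10.98 FPKM in Akt/Nras/Foxo1AAA tumours, at 9.03, 3.29 and 5.78 FPKM in Akt/Nras tumours and at 47.2, 62.0, 50.2 and 46.8 FPKM in normal livers. All 6 tumours lay far below the normal livers, and 1 Akt/Nras/Foxo1AAA tumour lay within the Akt/Nras range. Hal was 4.80-fold lower than normal liver in Akt/Nras/Foxo1AAA tumours (log2 difference -2.17, SE 0.24, limma's adjusted p = 2.37e-05) and 8.54-fold lower in Akt/Nras tumours (log2 difference -2.98, SE 0.24, limma's adjusted p = 1.55e-06). Uroc1 (ENSMUSG00000034456) stood at 52.6, 48.6 and 35.1 FPKM in Akt/Nras/Foxo1AAA tumours, at 32.7, 31.5 and 39.2 FPKM in Akt/Nras tumours and at 114, 142, 111 and 122 FPKM in normal livers. Its tumour groups overlapped each other and neither overlapped normal liver. Uroc1 was 2.69-fold lower in Akt/Nras/Foxo1AAA tumours (log2 difference -1.42, SE 0.15, limma's adjusted p = 1.26e-05) and 3.55-fold lower in Akt/Nras tumours (log2 difference -1.80, SE 0.15, limma's adjusted p = 1.43e-06) than in normal liver.

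Later steps of the same pathway fell as well. Amdhd1, the imidazolonepropionase that takes over from urocanate hydratase, averaged 24.3 ± 3.51 FPKM in Akt/Nras/Foxo1AAA tumours (SD, n = 3), 12.4 ± 0.808 FPKM in Akt/Nras tumours (SD, n = 3) and 90.7 ± 8.69 FPKM in normal liver (SD, n = 4). Ftcd, which passes the formimino group of histidine to folate, averaged 76.5 ± 13.8, 55.4 ± 8.30 and 209 ± 8.90 FPKM in Akt/Nras/Foxo1AAA tumours, Akt/Nras tumours and normal liver (SD, n = 3, 3 and 4). Both tested genes of the 3 histidine partners fell in each tumour group, with log2 changes of -1.86 for Amdhd1 and -1.45 for Ftcd in Akt/Nras/Foxo1AAA tumours and of -2.78 and -1.91 in Akt/Nras tumours (largest adjusted p in limma = 4.97e-06). The ratio of Uroc1 to Hal within a library was 3.20 to 5.65 in Akt/Nras/Foxo1AAA tumours, 3.62 to 9.56 in Akt/Nras tumours, against 2.21 to 2.61 in normal livers. A ratio within a library does not depend on its scale.

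Sds encodes serine dehydratase, which turns serine into pyruvate for glucose production, and it fell in both tumour groups with the widest spread of the genes that fell by limma's SE. Sds (ENSMUSG00000029597) stood at 25.8, 32.0 and 76.5 FPKM in Akt/Nras/Foxo1AAA tumours, at 56.2, 30.1 and 59.1 FPKM in Akt/Nras tumours and at 90.3, 136, 143 and 102 FPKM in normal livers. The highest Akt/Nras/Foxo1AAA tumour came close to the lowest normal liver, though no tumour reached it. Sds was 2.63-fold lower in Akt/Nras/Foxo1AAA tumours (log2 difference -1.51, SE 0.36, limma's adjusted p = 0.00367) and 2.43-fold lower in Akt/Nras tumours (log2 difference -1.30, SE 0.36, limma's adjusted p = 0.00786). Under equal totals the log2 changes were -0.80 (limma's adjusted p = 0.0617) and -0.34 (limma's adjusted p = 0.387), so both calls were lost. In Akt/Nras tumours the call was also lost when the 50 most abundant genes were left out of the total (-0.60, limma's adjusted p = 0.135) and with equal sums of the 10 hepatocyte genes (-0.56, limma's adjusted p = 0.210). Sds overlaps Plbd2 and the long non-coding RNA Gm15690 on the opposite strand, and the sources used here do not say whether counting used strand, so its level is uncertain.

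The related enzymes of serine and glycine did not all follow Sds. Sdsl, a serine dehydratase-like gene, averaged 16.8 ± 4.10 FPKM in Akt/Nras/Foxo1AAA tumours, 26.2 ± 5.58 FPKM in Akt/Nras tumours (SD, n = 3 each) and 16.4 ± 2.09 FPKM in normal liver (SD, n = 4). It rose in Akt/Nras tumours (log2 difference 0.64, limma's adjusted p = 0.00691) and did not pass in Akt/Nras/Foxo1AAA tumours (log2 difference 0.02, limma's adjusted p = 0.928) on the deposited scale. In Akt/Nras/Foxo1AAA tumours Sdsl was called higher under equal totals (0.70, limma's adjusted p = 0.00519) and when the 50 most abundant genes were left out of the total (0.58, limma's adjusted p = 0.00858). Srr, the serine racemase, fell with log2 changes of -1.38 in Akt/Nras/Foxo1AAA tumours and -2.08 in Akt/Nras tumours, and Shmt1, the cytosolic serine hydroxymethyltransferase, with -1.65 and -2.32 (largest adjusted p in limma = 8.22e-06). Of the 4 serine partners 3 fell in each tumour group. Within a library the ratio of Sdsl to Sds was 0.280 to 0.534 in Akt/Nras/Foxo1AAA tumours, 0.424 to 0.707 in Akt/Nras tumours, against 0.106 to 0.175 in normal livers.

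Gls2 encodes the liver glutaminase, which releases ammonia from glutamine for urea synthesis, and it fell in both tumour groups. Gls2 (ENSMUSG00000044005) stood at 31.7, 26.7 and 24.9 FPKM in Akt/Nras/Foxo1AAA tumours, at 17.3, 21.9 and 25.1 FPKM in Akt/Nras tumours and at 100.2, 145, 118 and 104 FPKM in normal livers. The tumour groups overlapped at their edge and both lay far below normal liver. Gls2 was 4.21-fold lower in Akt/Nras/Foxo1AAA tumours (log2 difference -2.03, SE 0.16, limma's adjusted p = 1.72e-06) and 5.45-fold lower in Akt/Nras tumours (log2 difference -2.39, SE 0.16, limma's adjusted p = 3.14e-07). The locus overlaps Spryd4 on the opposite strand and the long non-coding RNA Gm52965 on its own strand, so reads there may be shared.

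The enzymes that make or spend glutamine moved in different directions. Glul, the pericentral glutamine synthetase that works in the opposite direction to Gls2, averaged 39.7 ± 2.84, 18.5 ± 6.82 and 198 ± 8.97 FPKM in Akt/Nras/Foxo1AAA tumours, Akt/Nras tumours and normal liver (SD, n = 3, 3 and 4), and fell with log2 changes of -2.29 in Akt/Nras/Foxo1AAA tumours and -3.42 in Akt/Nras tumours (limma's adjusted p = 3.98e-06 and 1.49e-07). Asns, the asparagine synthetase that uses glutamine, rose, with log2 changes of 2.38 in Akt/Nras/Foxo1AAA tumours and 2.66 in Akt/Nras tumours (limma's adjusted p = 0.000573 and 0.000212).

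Etnppl encodes ethanolamine-phosphate phospho-lyase, which degrades phosphoethanolamine, and it had the lowest tumour levels of the 9 genes. Etnppl (ENSMUSG00000019232) stood at 1.97, 1.62 and 1.17 FPKM in Akt/Nras/Foxo1AAA tumours, at 2.07, 0.763 and 2.02 FPKM in Akt/Nras tumours and at 6.86, 19.3, 8.44 and 6.43 FPKM in normal livers. The Akt/Nras/Foxo1AAA tumours lay within the Akt/Nras range, no tumour reached the normal livers, and 1 normal liver stood far above the other 3. Etnppl was 6.48-fold lower in Akt/Nras/Foxo1AAA tumours (log2 difference -2.005, SE 0.33, limma's adjusted p = 0.000372) and 6.35-fold lower in Akt/Nras tumours (log2 difference -2.02, SE 0.33, limma's adjusted p = 0.000285). The folds exceed these log2 differences because the high normal liver raises the mean and 1 FPKM was added before the logarithm. With 1 library left out at a time, the log2 differences were -2.16 to -1.68 in Akt/Nras/Foxo1AAA tumours and -2.18 to -1.69 in Akt/Nras tumours. Etnk2 and Pcyt2, which make and use phosphoethanolamine for membrane phospholipid, fell too, with log2 changes of -2.501 and -1.24 in Akt/Nras/Foxo1AAA tumours and of -3.04 and -2.30 in Akt/Nras tumours (largest adjusted p in limma = 5.07e-05). The 7 genes listed beside Etnppl include Hykk and Phykpl, which are not enzymes of phosphoethanolamine. Of the 7 genes 6 fell in each tumour group on the deposited scale, whereas under equal totals 3 fell and 3 rose in each. On the deposited scale Sgpl1, the sphingosine phosphate lyase that releases phosphoethanolamine, had log2 changes of 0.25 (limma's adjusted p = 0.120) in Akt/Nras/Foxo1AAA tumours and 0.50 (limma's adjusted p = 0.00683) in Akt/Nras tumours, and under the 4 other scalings it was called higher in Akt/Nras/Foxo1AAA tumours too, with log2 changes of 0.42 to 0.93.

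Hsd17b13 encodes a hepatocyte enzyme on the surface of lipid droplets, and it did not share the fall of the amino acid enzymes. Hsd17b13 (ENSMUSG00000034528) stood at 139, 127 and 135 FPKM in Akt/Nras/Foxo1AAA tumours, at 102, 75.3 and 101 FPKM in Akt/Nras tumours and at 92.6, 107, 95.2 and 97.1 FPKM in normal livers. All 3 Akt/Nras/Foxo1AAA tumours lay above every other library, and of the Akt/Nras tumours 2 lay within the normal range and 1 below it. Hsd17b13 was 1.37-fold higher in Akt/Nras/Foxo1AAA tumours than in normal liver (log2 difference 0.45, SE 0.11, limma's adjusted p = 0.00541), and this call held under each scaling tried. Its log2 change in Akt/Nras tumours was -0.09 (95% interval -0.34 to 0.16, limma's adjusted p = 0.504) on the deposited scale, and it was called higher with a log2 change of 0.87 under equal totals, 0.61 when the 50 most abundant genes were left out of the total and 0.65 when libraries were scaled to equal sums of the 10 hepatocyte genes. The medians over all tested genes under these scalings, in the same order, were 0.71, 0.51 and 0.55.

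Hsd17b11, its close relative on lipid droplets, fell in both groups, with log2 changes of -1.54 in Akt/Nras/Foxo1AAA tumours and -2.08 in Akt/Nras tumours (limma's adjusted p = 1.27e-05 and 8.83e-07). In normal liver the levels of the pair were nearly equal, with a ratio of Hsd17b13 to Hsd17b11 of 1.04 to 1.09, and the ratio was 3.62 to 5.05 in Akt/Nras/Foxo1AAA tumours and 3.84 to 4.77 in Akt/Nras tumours. Plin2, the main coat protein of hepatocyte lipid droplets, averaged 238 ± 21.2 FPKM in Akt/Nras/Foxo1AAA tumours, 178 ± 29.9 FPKM in Akt/Nras tumours (SD, n = 3 each) and 122 ± 11.3 FPKM in normal liver (SD, n = 4), and rose in both (log2 differences 0.96 and 0.54, limma's adjusted p = 6.33e-05 and 0.00267). Pnpla3, a lipid droplet lipase relative, rose as well, with log2 changes of 1.61 and 0.84 (limma's adjusted p = 0.000419 and 0.0180), though the call in Akt/Nras tumours was lost without the second of them (limma's adjusted p = 0.0835).

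Pigr encodes the polymeric immunoglobulin receptor, which carries immunoglobulin A across hepatocytes and bile duct cells into bile, and it showed the largest log2 fall of the 9 genes in Akt/Nras tumours. Pigr (ENSMUSG00000026417) stood at 176, 134 and 96.0 FPKM in Akt/Nras/Foxo1AAA tumours, at 69.7, 34.9 and 88.6 FPKM in Akt/Nras tumours and at 519, 555, 587 and 586 FPKM in normal livers. The 3 groups did not overlap: Akt/Nras/Foxo1AAA tumours lay between Akt/Nras tumours and normal livers. Pigr was 4.15-fold lower in Akt/Nras/Foxo1AAA tumours (log2 difference -2.09, SE 0.28, limma's adjusted p = 9.30e-05) and 8.72-fold lower in Akt/Nras tumours (log2 difference -3.20, SE 0.28, limma's adjusted p = 2.79e-06) than in normal liver. Fcgrt, the receptor that recycles immunoglobulin G and albumin, averaged 70.8 ± 9.32, 50.5 ± 6.64 and 179 ± 7.58 FPKM in Akt/Nras/Foxo1AAA tumours, Akt/Nras tumours and normal liver (SD, n = 3, 3 and 4) and fell in both tumour groups (limma's adjusted p = 2.99e-06 and 2.16e-07). Igha, the heavy chain of the antibody that Pigr carries, averaged 0.765 ± 0.318 FPKM in Akt/Nras/Foxo1AAA tumours, 4.13 ± 3.11 FPKM in Akt/Nras tumours (SD, n = 3 each) and 1.58 ± 0.492 FPKM in normal liver (SD, n = 4). The third Akt/Nras tumour held 7.70 FPKM and the other 2 held 2.69 and 2.003 FPKM, and the log2 change of Igha in Akt/Nras tumours was 0.85 (limma's adjusted p = 0.0349), or 0.39 (limma's adjusted p = 0.127) without that tumour. This call was also lost without the second normal liver, the third or the fourth (limma's adjusted p = 0.0549 to 0.0874).

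Ctsc encodes cathepsin C, a lysosomal protease that activates serine proteases of immune cells, and on the deposited scale its changes were the smallest in both tumour groups apart from that of Hsd17b13 in Akt/Nras tumours. Ctsc (ENSMUSG00000030560) stood at 14.8, 15.8 and 16.7 FPKM in Akt/Nras/Foxo1AAA tumours, at 15.4, 12.1 and 15.4 FPKM in Akt/Nras tumours and at 12.1, 12.0, 13.3 and 13.01 FPKM in normal livers. The Akt/Nras/Foxo1AAA tumours lay just above the normal livers, and 1 Akt/Nras tumour lay among them. Ctsc was 1.25-fold higher in Akt/Nras/Foxo1AAA tumours (log2 difference 0.30, SE 0.09, limma's adjusted p = 0.0173), a call lost without the third Akt/Nras/Foxo1AAA tumour (log2 difference 0.26, limma's adjusted p = 0.0625). Its log2 change in Akt/Nras tumours was 0.16 (95% interval -0.05 to 0.37, limma's adjusted p = 0.158) on the deposited scale. Ctsc was called higher there without the second Akt/Nras tumour (log2 difference 0.27, limma's adjusted p = 0.0177). It was also called higher there under every other scaling, with log2 differences from 0.32 (median ratio scaling) to 1.06 (equal totals). The medians over all tested genes under the scalings named here were 0.07 and 0.71.

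Macrophages also make cathepsins. The sum of 14 macrophage markers was 545 to 864 FPKM in Akt/Nras/Foxo1AAA tumours, 630 to 837 FPKM in Akt/Nras tumours and 180 to 296 FPKM in normal livers. Of the 12 markers tested 7 rose in each tumour group, beside 26.8% of all tested genes in Akt/Nras/Foxo1AAA tumours and 31.1% in Akt/Nras tumours. The other 5 did not pass in Akt/Nras/Foxo1AAA tumours, and in Akt/Nras tumours the Kupffer cell markers Clec4f and Timd4 fell (log2 changes -1.25 and -0.78, limma's adjusted p = 0.00568 and 0.0125) and 3 did not pass. Under equal totals none of the 12 was called lower. None of the 14 stood at 0 in any whole group. Ctss, a cathepsin of antigen-presenting cells, rose with log2 changes of 1.33 in Akt/Nras/Foxo1AAA tumours and 1.44 in Akt/Nras tumours (limma's adjusted p = 6.27e-05 and 2.64e-05). Ctsb, which hepatocytes express at a high level, had a log2 change of 0.32 in Akt/Nras/Foxo1AAA tumours (limma's adjusted p = 0.0168, and 0.0559 without the first of them), while its value in Akt/Nras tumours was -0.12 on the deposited scale and 0.85 under equal totals. The part of macrophages in the Ctsc level was not tested.

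Cdh1 encodes E-cadherin, the adhesion molecule of epithelial junctions, which in the liver marks periportal hepatocytes and bile duct cells, and it was the one gene of the 9 called higher in both tumour groups on the deposited scale. Cdh1 (ENSMUSG00000000303) stood at 46.2, 43.2 and 23.6 FPKM in Akt/Nras/Foxo1AAA tumours, at 73.9, 48.9 and 53.8 FPKM in Akt/Nras tumours and at 14.3, 9.89, 12.4 and 10.9 FPKM in normal livers. Every tumour lay above every normal liver, and every Akt/Nras/Foxo1AAA tumour lay below every Akt/Nras tumour. Cdh1 was 3.17-fold higher in Akt/Nras/Foxo1AAA tumours (log2 difference 1.54, SE 0.23, limma's adjusted p = 0.000177) and, in Akt/Nras tumours, 4.95-fold higher (log2 difference 2.21, SE 0.23, limma's adjusted p = 9.16e-06) than in normal liver, and both calls held in each alternative run.

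The catenins that bind it at the cell junction were higher too. The 12 genes listed with Cdh1 comprise 4 catenins, Cdh2, Vim and 6 transcription factors that act on Cdh1. Of the 9 tested, 6 rose in each tumour group: Vim, Snai1 and the 4 catenins Ctnnb1 (beta-catenin, log2 changes 0.61 in Akt/Nras/Foxo1AAA tumours and 0.92 in Akt/Nras tumours), Ctnna1 (alpha-catenin, 0.76 and 0.86), Ctnnd1 (p120-catenin, 0.32 and 0.37) and Jup (plakoglobin, 1.03 and 1.11; largest limma's adjusted p of these = 0.00262). Cdh2, the N-cadherin that hepatocytes express beside E-cadherin, averaged 12.1 ± 0.210 FPKM in Akt/Nras/Foxo1AAA tumours, 12.3 ± 0.734 FPKM in Akt/Nras tumours (SD, n = 3 each) and 14.6 ± 0.958 FPKM in normal liver (SD, n = 4), and its log2 changes were -0.25 and -0.23 on the deposited scale but 0.42 and 0.67 under equal totals. The ratio of Cdh1 to Cdh2 was 1.97 to 3.84 in Akt/Nras/Foxo1AAA tumours, 3.73 to 6.17 in Akt/Nras tumours, against 0.662 to 0.951 in normal livers. Vim, the intermediate filament of mesenchymal cells, and Snai1, a repressor of Cdh1, rose as well, with log2 changes of 3.26 and 0.93 in Akt/Nras/Foxo1AAA tumours and 4.21 and 1.196 in Akt/Nras tumours (largest adjusted p in limma = 3.41e-05). The other transcription factors of the list did not pass in either tumour group on the deposited scale or were too low to be tested.

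Bile duct markers were higher in the same tumours. Epcam, an adhesion molecule of bile duct cells, averaged 8.01 ± 1.89 FPKM in Akt/Nras/Foxo1AAA tumours, 26.6 ± 10.1 FPKM in Akt/Nras tumours (SD, n = 3 each) and 1.09 ± 0.456 FPKM in normal liver (SD, n = 4), and the ratio of Cdh1 to Epcam was 4.01 to 4.97 in Akt/Nras/Foxo1AAA tumours, 1.98 to 2.85 in Akt/Nras tumours, against 8.56 to 17.7 in normal livers. Of the 12 tested bile duct markers 9 rose in Akt/Nras/Foxo1AAA tumours and 12 in Akt/Nras tumours, beside 26.8% and 31.1% of all tested genes. Between the tumour groups 8 were lower in Akt/Nras/Foxo1AAA than in Akt/Nras tumours, beside 4.13% of all tested genes. The part of duct-like cells in the Cdh1 level was not tested.

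**Figure D2:**
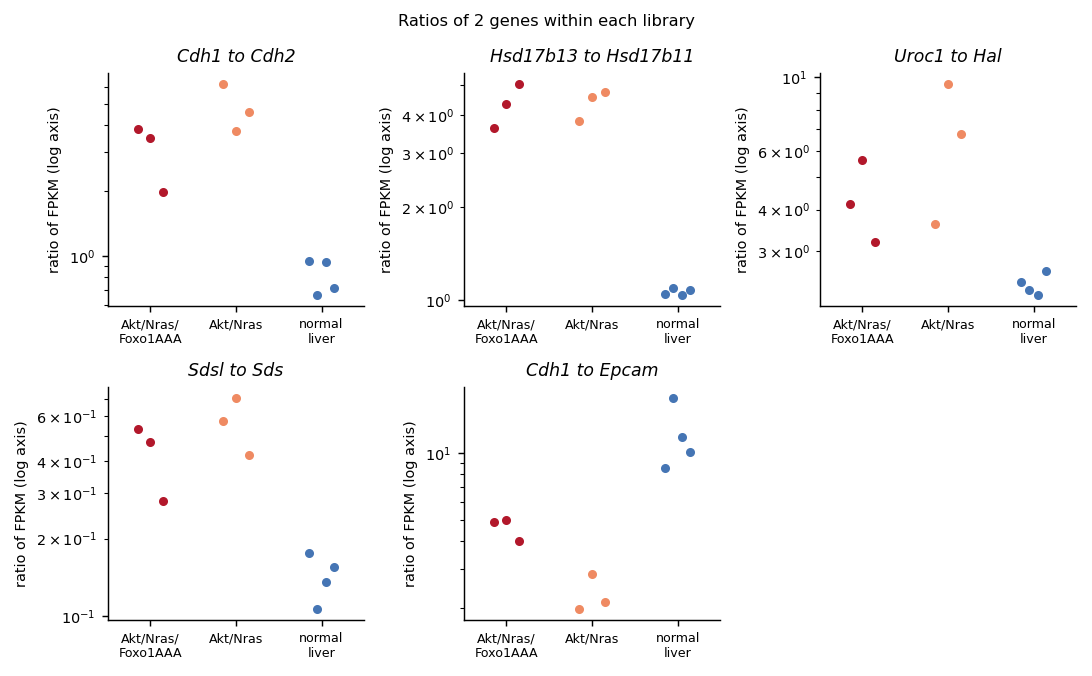
Ratio of the FPKM of 2 genes within each library (vertical log axes), 1 point per library, in Akt/Nras/Foxo1AAA tumours, Akt/Nras tumours and normal livers. In all 5 panels the tumours lie on one side of the normal livers; the ratio of Cdh1 to Cdh2 is 1.97 to 3.84 in Akt/Nras/Foxo1AAA tumours, 3.73 to 6.17 in Akt/Nras tumours, against 0.662 to 0.951 in normal livers.

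For each of the 5 ratios, the tumours of either group were separated from the normal livers, and an exact two-sided permutation test of the log2 ratios gave p = 0.0571 for each of these 10 comparisons, the smallest value that 3 against 4 libraries allow (adjusted p = 0.0857 over 15 comparisons). Between Akt/Nras/Foxo1AAA and Akt/Nras tumours, the ratio of Cdh1 to Epcam did not overlap (exact permutation p = 0.1, the smallest that 3 against 3 allow, adjusted p = 0.136), and the other 4 overlapped. With these group sizes no such test can pass 0.05. The 5 pairs were picked by hand, and each holds a gene that was called against normal liver. Their separation therefore adds no separate support. The share of separated ratios among other pairs of genes was not computed.

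The direct comparison of the tumour groups concerned the addition of Foxo1AAA to Akt and Nras. Pigr and Hsd17b13 were higher in Akt/Nras/Foxo1AAA than in Akt/Nras tumours, and the other 7 genes did not pass. That is 2 of 9 called, both higher, beside 12.1% of all tested genes called, 7.93% higher and 4.13% lower. The tumour groups did not overlap for 3 of the 9, Pigr, Hsd17b13 and Cdh1, beside 31.9% of all tested genes. Pigr was 2.10-fold higher (log2 difference 1.12, SE 0.30, limma's adjusted p = 0.0398) and Hsd17b13 was 1.44-fold higher (log2 difference 0.54, SE 0.12, limma's adjusted p = 0.0205). Neither call was stable: scaled to equal sums of the 10 hepatocyte genes, the log2 changes were 0.69 for Pigr (limma's adjusted p = 0.0588) and 0.11 for Hsd17b13 (limma's adjusted p = 0.503), and with the 6 tumour libraries alone the limma's adjusted p was 0.132 and 0.0867. With the replicate number as a block, a fit that also leaves out the fourth normal liver, limma's adjusted p was 0.0896 and 0.0706. The Pigr call was also lost without any single normal liver (limma's adjusted p = 0.0546 to 0.0601), without the first or second Akt/Nras tumour (0.0658 and 0.0666) or without the first or second Akt/Nras/Foxo1AAA tumour (0.146 and 0.106), and the Hsd17b13 call was lost without the first or second Akt/Nras/Foxo1AAA tumour (limma's adjusted p = 0.0753 and 0.0529).

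Of the remaining genes, Hal and Uroc1 had positive changes of 0.81 (95% interval 0.23 to 1.39, limma's adjusted p = 0.0709) and 0.38 (95% interval 0.03 to 0.72, limma's adjusted p = 0.143). Hal was called higher without the first Akt/Nras tumour (limma's adjusted p = 0.0227) and Uroc1 without the third Akt/Nras/Foxo1AAA tumour (limma's adjusted p = 0.0234). Cdh1 had a negative one of -0.67 (95% interval -1.21 to -0.12, limma's adjusted p = 0.103), and it was called lower under equal totals (-0.92, limma's adjusted p = 0.0174) and under the equal hepatocyte sum (-1.09, limma's adjusted p = 0.00401). The values of Sds (-0.22, 95% interval -1.06 to 0.63) and Etnppl (0.01, 95% interval -0.77 to 0.80) lay near 0 with wide intervals, so changes of either sign remain possible. Gls2 and Ctsc had log2 changes of 0.37 and 0.14 (limma's adjusted p = 0.176 and 0.388). The histidine partner Amdhd1 was higher in Akt/Nras/Foxo1AAA than in Akt/Nras tumours (log2 difference 0.91, SE 0.12, limma's adjusted p = 0.00327), a call lost with the 6 tumour libraries alone (limma's adjusted p = 0.0522).

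**Figure D3:**
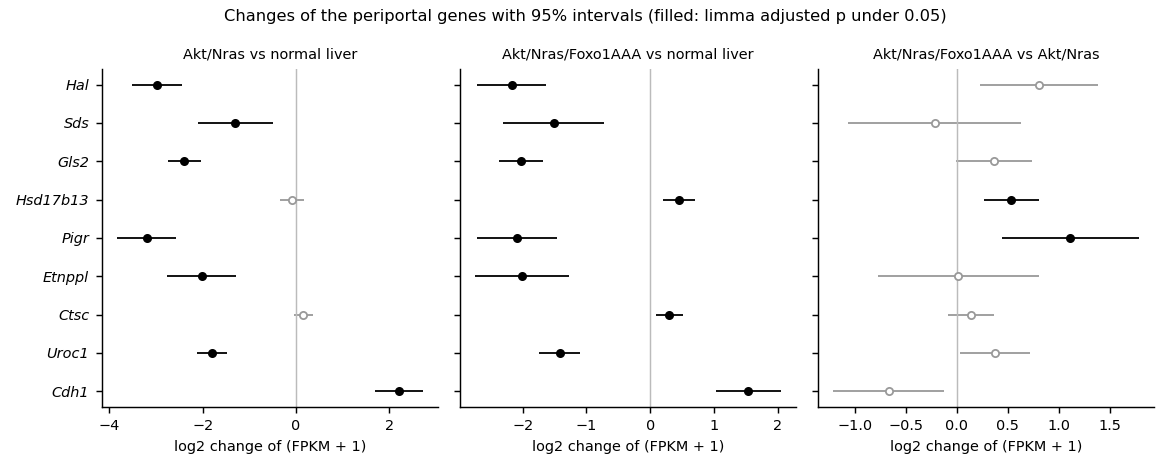
log2 change of (FPKM + 1) of the 9 periportal genes with 95% intervals in the 3 comparisons, filled where limma's adjusted p was under 0.05. Pigr and Hsd17b13 are the filled points between the tumour groups at 1.12 and 0.54, and both lose the call when libraries are scaled to equal hepatocyte sums.

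**Figure D4:**
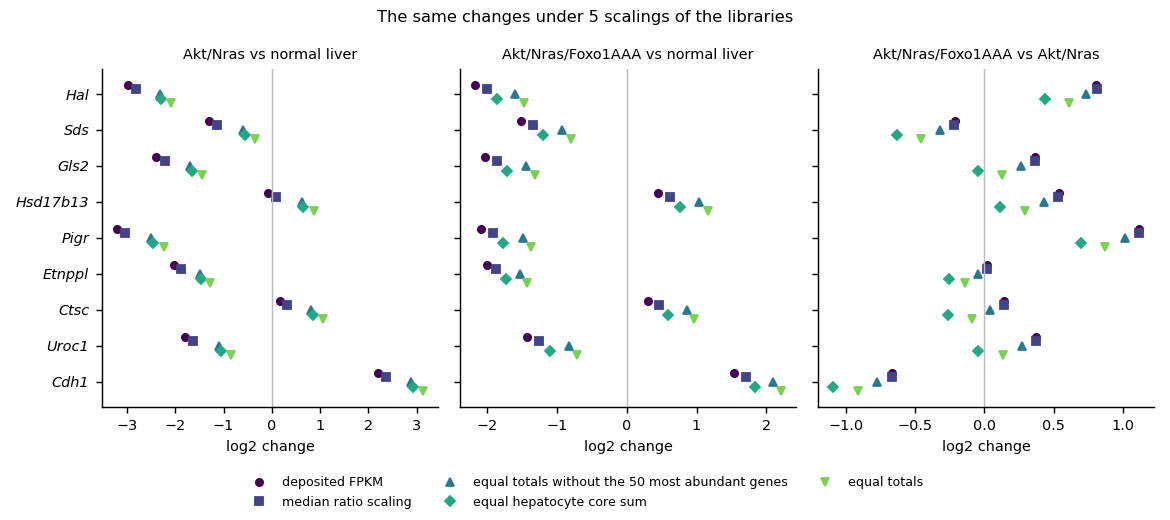
log2 change of the 9 periportal genes (horizontal axis) in the 3 comparisons under 5 scalings of the libraries, 1 symbol per scaling. The 6 genes that fell stay left of 0 and Cdh1 stays right of 0 against normal liver under all 5, whereas Hsd17b13 in Akt/Nras tumours is at -0.09 on the deposited scale and 0.87 under equal totals.

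Most other genes of the same zone fell as well. Of 16 other periportal genes 14 fell and 1 rose in Akt/Nras/Foxo1AAA tumours (median log2 change -1.61), and 15 fell and 1 rose in Akt/Nras tumours (median -2.31). Of all tested genes 36.5% and 37.9% fell in the same comparisons. Alb is counted both here and among the general hepatocyte genes. Under equal totals 10 fell in Akt/Nras/Foxo1AAA tumours and 13 in Akt/Nras tumours. Without the 50 most abundant genes in the total, 10 and 14 fell, and 1 rose in each case. The one that rose in both was Aldh1b1, a mitochondrial aldehyde dehydrogenase, with log2 changes of 1.34 and 0.91 (limma's adjusted p = 7.03e-05 and 0.000834). Cyp2f2, the classical periportal cytochrome P450, fell with log2 changes of -2.74 and -3.96 (limma's adjusted p = 0.000195 and 9.62e-06), and the urea cycle genes Cps1 and Ass1 fell with log2 changes of -1.79 and -2.15 in Akt/Nras/Foxo1AAA tumours and -2.88 and -3.07 in Akt/Nras tumours (largest adjusted p in limma = 2.04e-05). Between the tumour groups 7 of the 16 were higher in Akt/Nras/Foxo1AAA tumours and none lower, beside 7.93% and 4.13% of all tested genes. The median of the 16 was 0.79, beside a median of 0.37 over the 9 genes and -0.01 over all tested genes. The count of 7 was 3 without the first Akt/Nras tumour, 2 without the first Akt/Nras/Foxo1AAA tumour, 3 without the second Akt/Nras/Foxo1AAA tumour, 2 with the replicate number as a block and 0 with the 6 tumour libraries alone.

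Most genes of the opposite zone fell too. Of 22 tested pericentral genes 18 fell in each tumour group, while 1 rose in Akt/Nras/Foxo1AAA tumours (Cldn2, a tight junction protein) and 2 rose in Akt/Nras tumours (Cldn2 and Ahr), with medians of -1.71 in Akt/Nras/Foxo1AAA tumours and -2.46 in Akt/Nras tumours. Cyp2e1, a pericentral cytochrome P450, fell with log2 changes of -4.08 and -7.13 (limma's adjusted p = 0.000123 and 1.42e-06), and Cyp1a2 fell with log2 changes of -4.93 and -6.40 (limma's adjusted p = 1.06e-06 and 1.06e-07). Between the tumour groups 12 of the 22 were higher and 3 lower in Akt/Nras/Foxo1AAA tumours, beside 7.93% and 4.13% of all tested genes. Among the 12 was Cyp7a1, the rate-limiting enzyme of bile acid synthesis, which was higher by 2.60 (SE 0.40, limma's adjusted p = 0.00586). The call of Ahr was lost without the first or the third normal liver and without the first or the third Akt/Nras tumour (limma's adjusted p = 0.0643 to 0.113). With the 6 tumour libraries alone none of the 22 was called, and the count of 3 lower was 1 without the fourth normal liver, the first or the third Akt/Nras tumour or the first or second Akt/Nras/Foxo1AAA tumour. These lists were described by counts and medians and not tested against each other.

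**Figure D5:**
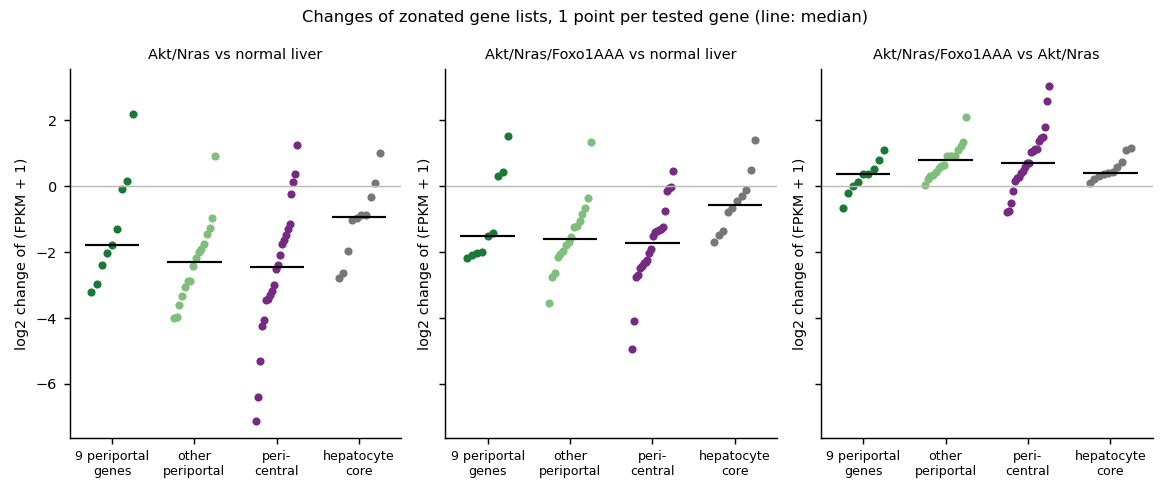
log2 change of (FPKM + 1) of each tested gene of 4 lists in the 3 comparisons, 1 point per gene with a line at the median. Against normal liver the medians of the 9 genes are -1.51 in Akt/Nras/Foxo1AAA tumours and -1.80 in Akt/Nras tumours, those of the pericentral genes -1.71 and -2.46, and points near 0 change side under other scalings, as those of Hsd17b13 in Akt/Nras tumours do.

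Among themselves, the 6 genes that fell had similar profiles over the 10 libraries. Pearson's r of log2(FPKM + 1) was 0.986 for Gls2 with Uroc1, 0.973 for Hal with Pigr and 0.725 for Sds with Uroc1, the lowest of all pairs of these 6 genes. Hsd17b13 had an r between -0.219 and 0.0282 with each of the 6, and Cdh1 had an r of -0.941 with Gls2. These points share libraries and groups, so r describes mostly the difference between tumours and normal livers. The tested gene most like each was Aspscr1 for Hal (r = 0.997), Isca1 for Sds (0.974), Pcca for Gls2 (0.997), Sqstm1 for Hsd17b13 (0.964), Ass1 for Pigr (0.996), Eif3j1 for Etnppl (0.981), Clec4a1 for Ctsc (0.930), Tmem126b for Uroc1 (0.997) and Gmds for Cdh1 (0.989), each over 10 libraries.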

How the data were processed

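Total RNA from the 10 samples was sequenced, and the library step is polyA capture or rRNA removal, per the labels' protocols. The FPKM values came as 1 table, deposited by the authors with a column for each library, per the file headers. FastQC 0.11.7 and GRCm38 stand in the submitters' processing notes, while the sources used here name no aligner, counter or annotation. Of 52073 genes shared with the GRCm38 annotation only 1435 had the same coordinates, so promoter windows alone are on that build. FPKM times gene length gave whole reads within 0.02 for all values above 0.

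The FPKM were not rescaled. They were transformed as log2(FPKM + 1), which understates changes of low genes, and genes with at least 1 FPKM in at least 3 libraries were kept. A single limma 3.58.1 model in R 4.3.3, with group means for all 10 libraries and a variance trend, gave two-sided tests, with Benjamini-Hochberg adjustment over all tested genes. Folds are ratios of mean FPKM. Ratios within a library were compared by exact permutation tests. Alternatives were a pseudocount of 0.1, no filter, a minimum of 5 FPKM and other scalings. Further ones were only the 2 groups compared, array weights, a replicate block without the fourth normal liver and leaving out each library. The 9 genes, the 19 lists set beside them and the named genes (all 9 and the partner genes, and up to 2 called genes per direction from other lists) were chosen with earlier results of these data known. Of the listed genes 2 are not reported here by name and stay in the counts of their lists.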

Additional observations from a re-analysis of the deposited data

Results flagged for a closer look

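In a group of 4 samples, a library was marked as distant when its gap to the nearest other library took an unusually large share of the group's whole range (Dixon's test at 95%). Of 57 genes checked in the 4 normal livers 3 were marked, and chance marks about 1 in 20. Etnppl had 1 normal liver at 19.3 FPKM, against 6.43 to 8.44 FPKM in the other 3, and this gap was 0.845 of the range. Hsd17b6 was marked in normal liver with a share of 0.895 and Cdh2 with 0.855. Without its distant normal liver Etnppl was still called lower in both tumour groups.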

How the results depend on the processing

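Against normal liver, Hal, Uroc1, Gls2, Etnppl, Pigr and Cdh1 kept direction and call in both tumour groups under every alternative run, and Sds kept its direction. Equal hepatocyte sums and median ratio scaling were chosen after seeing the data, and edgeR and DESeq2 on recovered reads were not run. In Akt/Nras tumours the count of the 9 genes called higher (1) was 3 under equal totals, without the 50 most abundant genes in the total and with equal hepatocyte sums, 2 with median ratio scaling and 1 to 2 when 1 library was left out. Pericentral genes called higher (2) were 4 under equal totals, 1 with no filter, 1 with only the 2 groups compared and 1 to 2 when 1 library was left out, and in Akt/Nras/Foxo1AAA tumours (1) they were 4 under equal totals and 2 without the 50 most abundant genes.

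Values that turned positive, under equal totals, without the 50 most abundant genes and with equal hepatocyte sums, were in Akt/Nras tumours 0.87, 0.61 and 0.65 for Hsd17b13, 0.63, 0.36 and 0.40 for Glud1, 0.85, 0.59 and 0.63 for Ctsb and 0.67, 0.43 and 0.46 for Cdh2. In Akt/Nras/Foxo1AAA tumours they were 0.42, 0.31 and 0.049 for Cdh2 and, under the first and second of these, 0.66 and 0.54 for Glud1 and 0.44 and 0.35 for Ahr. Of 39 tested partner genes 14 were called higher and 19 lower in Akt/Nras tumours, against 26 and 11 under equal totals.

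Between the tumour groups, the 9 genes called (2, both higher) numbered 1 with no filter, 0 with only the 2 groups compared, 4 with array weights and 0 to 3 when 1 library was left out. With equal hepatocyte sums 1 was called and 0 were higher, under equal totals 1 was higher, and 1 was lower (Cdh1) under equal totals, without the 50 most abundant genes and with equal hepatocyte sums. Other periportal genes called higher (7) numbered 2 with no filter, 4 with equal hepatocyte sums, 0 with only the 2 groups, 11 with array weights and 2 to 9 when 1 library was left out. Pericentral genes called higher (12) numbered 0 with only the 2 groups and 8 to 13 when 1 library was left out, and those lower (3) 1 with no filter, 0 with only the 2 groups and 1 to 3 when 1 library was left out. Over all genes 1500 were called, 6738 with equal hepatocyte sums, 4053 under equal totals, 3668 with array weights, 923 with no filter, 10 with only the 2 groups, and 542 (without the first Akt/Nras/Foxo1AAA tumour) to 1939 when 1 library was left out. The cause was not tested.

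The block fit leaves out the fourth normal liver. With the replicate number as a block, 523 genes were called between the tumour groups, against 1117 without that liver and without a block. Among the 523 were 0 of the 9 genes, 2 of the other periportal genes (higher) and, of the pericentral genes, 8 higher and 1 lower. The labels state no pairing of samples with the same number. The correlation of their deviations from the group means was -0.170 to 0.112 over 9 pairs, beside -0.150 to 0.196 over 18 pairs with different numbers. A shared batch was not tested.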
